A study of Caenorhabditis elegans with 12 samples.

Results

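The comparison described here sets whole worms of the double mutant daf-2lf;skn-1gf against wild-type worms of Caenorhabditis elegans, across all genes of the deposited table and the gene families in it. The comparison uses the 6 RNA-seq libraries that carry these 2 genotypes in their labels, 3 of each, out of 12 libraries in the series. The other 6 libraries hold the single mutants skn-1gf and daf-2lf, 3 each, and enter only where their levels are set beside those of the double mutant. The suffixes lf and gf stand for loss and gain of function, and the double mutant carries both changes while the wild type carries neither. All strains grew on NGM agar plates (nematode growth medium) with the bacterium OP50 as food, and total RNA came from whole animals lysed in TRIzol. The labels name no allele, strain, age or stage at harvest, nor whether the replicates came from separate cultures, so p-values measure only the spread between these libraries, which may be technical.

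DAF-2 is the worm's receptor for insulin-like peptides. When its signal is weak, the FOXO transcription factor DAF-16 enters nuclei, and worms become long-lived and stress-resistant or, as larvae, enter the arrested dauer stage. SKN-1, the worm's Nrf protein, switches on genes for glutathione metabolism and detoxification in the intestine, and the insulin pathway restrains it as well. The double mutant thus joins 2 changes that each alter stress and longevity genes, and the comparison with wild type measures their joint difference.

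Sequencing depth was 21922656 to 29346039 counts in the double mutant and 19831863 to 24452219 in wild type, and ribosomal RNA genes held 1.55% to 1.83% and 1.58% to 2.45% of the counts. Replicates correlated at 0.9927 to 0.9944 in the double mutant and at 0.9847 to 0.9911 in wild type (Pearson, log2 CPM, across genes), and the biological coefficient of variation was 10.4%. No pair of replicates agreed within counting noise (chi-square per degree of freedom 7.33 to 22.8). Of 46936 genes, 15068 had enough counts to be tested. Levels are given in CPM (counts per 1000000 of the scaled library total), differences as log2 of the double mutant over wild type, and a gene is called where the adjusted p of edgeR's quasi-likelihood test, over all tested genes, is under 0.05. Among the single mutants, daf-2lf replicate 1 stands apart from its replicates and enters only the single-mutant comparisons and the fit to all 12 libraries. Marker genes that define body tissues were present in both genotypes. The summed level of 6 neuronal markers was 496.3 to 522.2 CPM in the double mutant and 284.1 to 326.2 CPM in wild type, and that of 6 intestinal markers was 3462 to 3682 CPM and 2030 to 2257 CPM. Body wall muscle markers were also higher, at 11180 to 13480 CPM and 10330 to 10500 CPM. The sums overlapped for hypodermis (2650 to 3441 and 2965 to 3238 CPM), pharynx (338.7 to 587.4 and 268.6 to 366.6 CPM) and coelomocytes (13.46 to 18.52 and 16.51 to 19.16 CPM).

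Most of the transcriptome differed between the genotypes. Of the tested genes, 73.8% were called, 33.6% (5069 genes) higher in the double mutant and 40.1% (6044 genes) lower. Many of these differences were small: 6107 called genes differed by less than 2-fold, while 2202 (14.6% of those tested) were at least 2-fold higher and 2804 (18.6%) at least 2-fold lower. The large differences were mostly falls, with 1537 genes called at least 16-fold lower and 176 at least 16-fold higher. At 77.8% of genes the 3 double-mutant libraries lay all above or all below the 3 wild-type ones. Of the calls 45.6% were higher. In a fit to all 12 libraries, where the spread is wider and the median of all genes is 0.12 log2 higher, 7368 genes were called and 55.3% of the calls were higher. The counts of gene families below are to be read against the shares of the 6-library fit. In whole worms, fewer cells of a type and less RNA per cell cannot be told apart, and this holds for every tissue-specific gene named. As the labels give no stage at harvest, a difference of stage between the 2 groups cannot be told apart from the genotype. This bears above all on the genes of reproduction, cuticle, moulting and larval timing.

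Ranked by fitted log2, which for genes at or near 0 in one genotype depends on the fit and is not a measured order, 4 of the 8 largest rises among protein-coding genes were in collagens, 2 in glutathione S-transferases and 1 in a hedgehog-related gene, and of the 8 largest falls at least 5 were in sperm genes. The collagen gene col-2 had 16.3, 10.2 and 11.1 CPM in the double mutant and no count in any wild-type library, at least 81.7-fold higher (edgeR adjusted p = 1.03e-05). F56A4.3, to which the file gives no name beyond its sequence identifier, had 19.4, 20.2 and 17.7 CPM in the double mutant and again 0 in wild type, at least 124-fold higher (edgeR adjusted p = 4.24e-07). Other genes in this group were col-102, col-36, col-50, grl-23, gst-30 and gst-25. At the other end, Y51H7C.1 had 0 counts in every double-mutant library, against 282, 352 and 246 CPM in wild type, at least 2139-fold lower (edgeR adjusted p = 2.40e-07). The sperm chromatin gene spch-1 was likewise at 0 in the double mutant, against 219, 230.4 and 191 CPM in wild type, at least 1555-fold lower (edgeR adjusted p = 5.15e-08). The rest of that group were the major sperm protein genes msp-40, msp-81, msp-57 and msp-19, with nsph-3.2 and Y57G11A.2. The fold bounds use a floor of 3 counts per library.

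**Figure D1:**
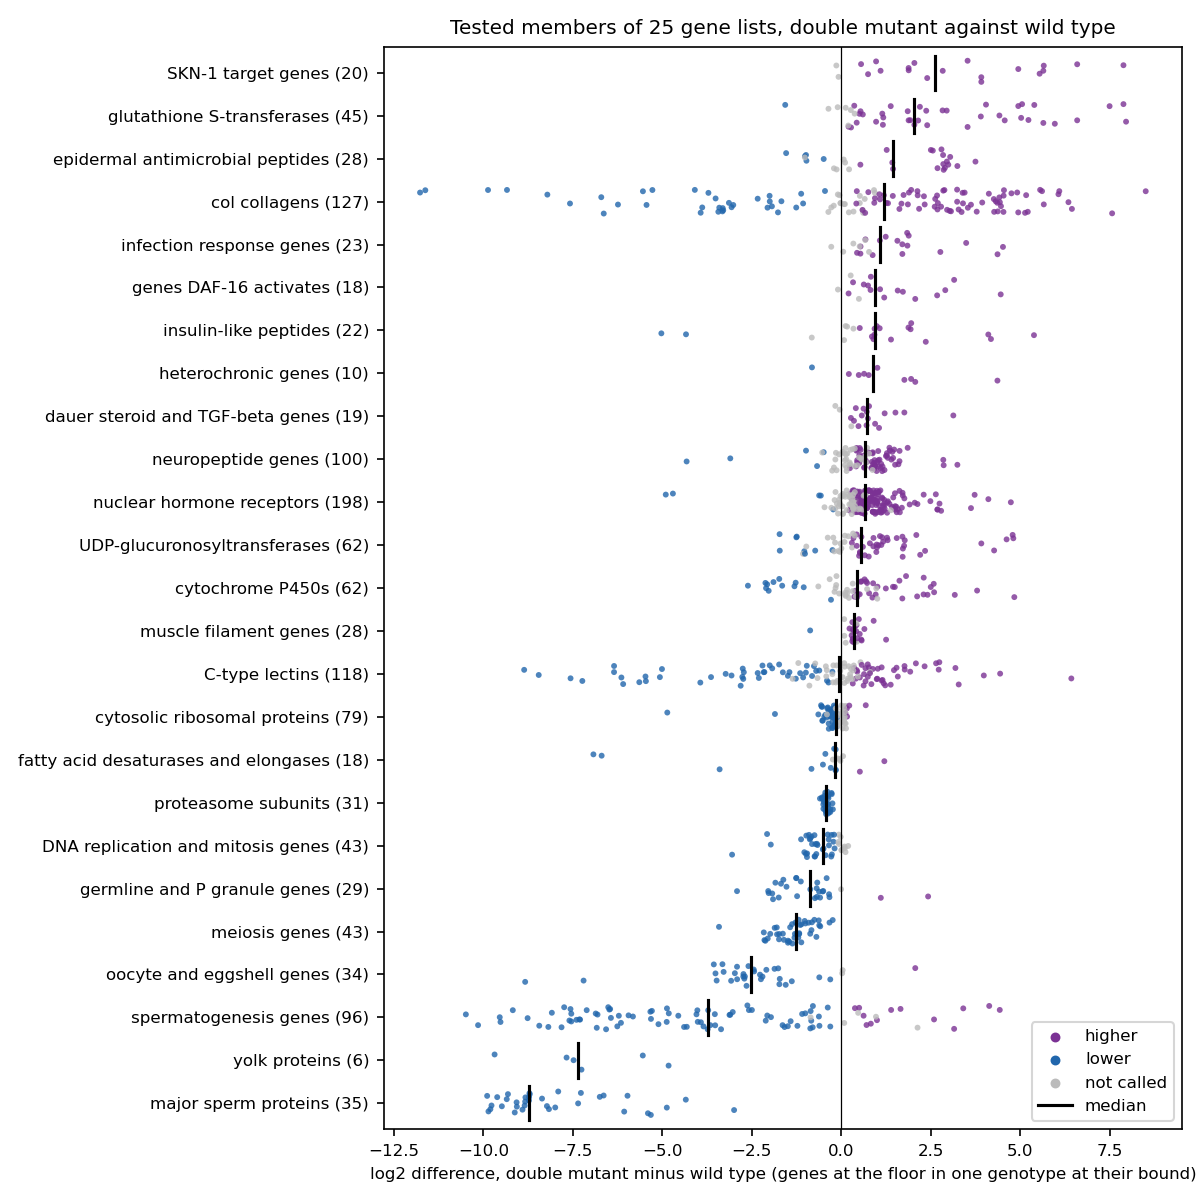
Log2 difference between the double mutant and wild type (horizontal axis) for each tested member of 25 gene lists (points, coloured by call; bar, median; number tested in brackets). Genes with at most 3 counts in every library of one genotype are drawn at their bound, where the median of the SKN-1 target genes is 2.62 and that of the major sperm proteins -8.71.

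The genes altered in the strains were themselves transcribed at a higher level in the double mutant. The labels name no allele, and a transcript count cannot show a change of protein activity, so these values do not check the labels. skn-1 had 223, 205 and 227 CPM in the double mutant, against 118.7, 133 and 126 CPM in wild type, a log2 difference of 0.80 (SE 0.065, edgeR adjusted p = 1.11e-05). Genes that overlap skn-1 hold counts equal to 20.7% of its own, and how the counting treated strand is not given in the sources used here. daf-2 had 129.9, 121 and 128 CPM in the double mutant and 73.5, 70.2 and 72.8 CPM in wild type, a log2 difference of 0.81 (SE 0.052, edgeR adjusted p = 2.58e-06). In both genes all double-mutant libraries lay above all wild-type ones, but the call of daf-2 was lost in the fit to all 12 libraries (edgeR adjusted p = 0.0792). Among 11 genes that act on SKN-1, 4 rose and 4 fell. These are 36.4% each, near the 33.6% and 40.1% of all tested genes. The balance depends on the scaling and the fit, with 7 and 3 under upper-quartile scaling and 2 and none in the fit to all 12 libraries. The largest rise was in wdr-23, whose product recruits SKN-1 for degradation and which is known as a SKN-1 target itself, with 269.9, 264 and 259 CPM in the double mutant, against 61.0, 53.0 and 60.7 CPM in wild type and a log2 difference of 2.18 (SE 0.068, edgeR adjusted p = 5.61e-08). brap-2, a negative regulator of SKN-1 in the worm, had 26.5, 29.1 and 28.2 CPM in the double mutant and 39.8, 40.2 and 37.2 CPM in wild type (log2 -0.48, SE 0.063, edgeR adjusted p = 0.000183), a call lost in the fit to all 12 libraries.

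The core of insulin signalling moved in both directions. Of its 18 tested members, which include the ligands daf-28, ins-7 and ins-18 described with the peptides, 9 rose and 5 fell, with a median of 0.12, against -0.05 over all tested genes. The fit to all 12 libraries called 7 higher and 1 lower. pdk-1, the kinase that activates AKT, had 20.9, 23.7 and 23.9 CPM in the double mutant, against 7.72, 6.75 and 8.68 CPM in wild type, a log2 difference of 1.57 (SE 0.11, edgeR adjusted p = 4.86e-06). The AKT gene akt-2 had 53.95, 51.7 and 51.3 CPM in the double mutant and 20.2, 23.4 and 21.5 CPM in wild type (log2 1.27, SE 0.068, edgeR adjusted p = 8.87e-07). Its paralogue akt-1 was not called, at 109.5, 119.04 and 121.8 CPM in the double mutant and 112, 114 and 112 CPM in wild type (log2 0.053, edgeR adjusted p = 0.41), and genes overlapping it hold counts equal to 117% of its own. The PI3-kinase gene age-1 was not called either (log2 -0.056, edgeR adjusted p = 0.479). daf-16 itself had 203, 191 and 190.4 CPM in the double mutant and 139, 143 and 134 CPM in wild type, a log2 difference of 0.49 (SE 0.054, edgeR adjusted p = 6.75e-05).

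The ligands of the pathway rose more often than they fell. Of 40 insulin-like peptide genes, 22 passed the filter on low counts, of which 15 rose and 2 fell. Their summed level was 239.6, 208 and 195 CPM in the double mutant, against 58.4, 50.8 and 65.0 CPM in wild type. ins-35 had 93.0, 81.4 and 60.8 CPM in the double mutant and 4.48, 3.27 and 5.09 CPM in wild type, a log2 difference of 4.19 (SE 0.20, edgeR adjusted p = 4.85e-07). ins-5 reached 31.3, 23.8 and 27.7 CPM, against 0.566, 0.562 and 0.848 CPM in wild type (log2 5.39, SE 0.18, edgeR adjusted p = 8.46e-08), and ins-4, an agonist of DAF-2, reached 21.9, 17.1 and 19.2 CPM, against 1.21, 0.409 and 1.70 CPM in wild type (log2 4.11, SE 0.30, edgeR adjusted p = 5.43e-06). daf-28, an agonist whose loss favours dauer entry, had 15.9, 13.4 and 15.9 CPM in the double mutant and 6.91, 6.24 and 9.58 CPM in wild type (log2 0.996, SE 0.16, edgeR adjusted p = 0.000678). ins-18, described as an antagonist of the receptor, had 3.38, 3.01 and 3.06 CPM in the double mutant and 1.54, 1.28 and 1.65 CPM in wild type (log2 1.08, SE 0.18, edgeR adjusted p = 0.000747). The 2 that fell were ins-37, with 0.229, 0.224 and 0.137 CPM in the double mutant, against 6.95, 6.08 and 6.19 CPM in wild type (log2 -5.03, SE 0.23, edgeR adjusted p = 3.63e-07), and ins-7, a gene that DAF-16 represses, with 0.183, 0.0449 and 0 CPM in the double mutant and 1.78, 1.43 and 1.25 CPM in wild type (log2 -4.34, SE 0.59, edgeR adjusted p = 0.000242).

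Known SKN-1 target genes rose nearly throughout. Of 20 tested, 18 rose and none fell, with a median log2 of 2.62, and 5 of 17 alternatives called 1 lower. The 2 that were not called, trx-2 and trxr-1, encode parts of the thioredoxin system. Their summed level was 6428, 6124 and 6024 CPM in the double mutant and 1528, 1611 and 1587 CPM in wild type. gst-4, the glutathione S-transferase gene most used as a SKN-1 reporter, had 1465, 1435 and 1347 CPM in the double mutant, against 26.7, 30.2 and 27.7 CPM in wild type, a log2 difference of 5.65 (SE 0.074, edgeR adjusted p = 2.16e-09). The lowest double-mutant library was thus far above the highest wild-type one, and overlapping genes hold counts equal to 10.3% of its own. gcs-1, which encodes the rate-limiting enzyme of glutathione synthesis, had 517, 448 and 441 CPM in the double mutant and 133, 124 and 123 CPM in wild type, a smaller difference of 1.89 (SE 0.076, edgeR adjusted p = 1.82e-07) on the log2 scale. sdz-8 had 165, 142 and 134 CPM in the double mutant, against 2.91, 2.10 and 4.44 CPM in wild type (log2 5.55, SE 0.20, edgeR adjusted p = 1.05e-07). The nitrilase gene nit-1 had 94.9, 82.8 and 80.9 CPM in the double mutant and 11.2, 10.99 and 14.02 CPM in wild type (log2 2.84, SE 0.11, edgeR adjusted p = 1.39e-07), with counts in overlapping genes at 182% of its own. The dehydrogenase gene dhs-8 had 30.5, 24.3 and 30.5 CPM in the double mutant and 1.86, 1.38 and 2.39 CPM in wild type (log2 3.92, SE 0.18, edgeR adjusted p = 3.70e-07). prdx-2, a peroxiredoxin gene, had 1257, 1247 and 1289 CPM in the double mutant and 574, 566 and 629 CPM in wild type (log2 1.10, SE 0.055, edgeR adjusted p = 5.85e-07).

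Of the detoxification families, the glutathione S-transferases had the largest share of rises among 4 families. Of 45 tested genes 38 rose, 30 of them at least 2-fold, and gst-19 alone fell, with 0.274, 0.673 and 0.618 CPM in the double mutant and 1.78, 1.18 and 1.75 CPM in wild type (log2 -1.56, SE 0.35, edgeR adjusted p = 0.00363). The family together had 5122, 4943 and 4747 CPM in the double mutant, against 836, 950.3 and 860.4 CPM in wild type, and its median log2 difference was 2.05. gst-7 had 680.3, 674 and 654 CPM in the double mutant and 54.9, 64.5 and 54.1 CPM in wild type (log2 3.53, SE 0.08, edgeR adjusted p = 1.54e-08). gst-12 had 134, 110.2 and 91.0 CPM in the double mutant and 1.09, 0.562 and 1.80 CPM in wild type (log2 6.60, SE 0.27, edgeR adjusted p = 1.93e-07). gst-38 had 112, 114 and 153 CPM in the double mutant and 3.60, 4.50 and 4.24 CPM in wild type (log2 4.95, SE 0.16, edgeR adjusted p = 5.95e-08). Both members among the largest rises were close to 0 in wild type. gst-30 had 47.6, 38.1 and 23.4 CPM in the double mutant and 0.0404, 0 and 0.0499 CPM in wild type, at least 237-fold higher (edgeR adjusted p = 1.02e-06), and gst-25 had 36.3, 26.4 and 20.6 CPM and 0, 0 and 0.0998 CPM, at least 181-fold higher (edgeR adjusted p = 7.76e-07). Genes of this family resemble each other in sequence, so reads could be split between neighbours.

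The other enzyme families were mixed. Among 62 tested UDP-glucuronosyltransferase genes, whose products attach sugar acids to foreign compounds, 38 rose and 8 fell. ugt-13 had 98.4, 84.3 and 77.2 CPM in the double mutant and 4.08, 4.65 and 8.63 CPM in wild type (log2 3.92, SE 0.24, edgeR adjusted p = 1.74e-06), while ugt-30 fell to 2.10, 2.29 and 1.58 CPM in the double mutant, against 6.83, 7.77 and 4.94 CPM in wild type (log2 -1.72, SE 0.22, edgeR adjusted p = 0.000167). Among 62 tested cytochrome P450 genes, which oxidize lipids and foreign compounds, 31 rose and 12 fell, and the summed level was 719, 742 and 772 CPM in the double mutant and 779, 786 and 757 CPM in wild type. cyp-34A1 had 5.76, 4.04 and 3.37 CPM in the double mutant, against 0.121, 0 and 0 CPM in wild type, at least 28.6-fold higher (edgeR adjusted p = 1.90e-05). The fallen group held 5 members of the 35A subfamily, which includes cyp-35A2, with 48.4, 57.2 and 53.4 CPM in the double mutant and 170.4, 174 and 155 CPM in wild type (log2 -1.65, SE 0.077, edgeR adjusted p = 4.12e-07), and cyp-35A3, with 3.66, 4.31 and 5.77 CPM and 29.9, 26.9 and 27.8 CPM (log2 -2.61, SE 0.15, edgeR adjusted p = 1.33e-06). Of 29 tested short-chain dehydrogenase genes, 18 rose and 7 fell, against 17 and 4 in the fit to all 12 libraries.

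Genes that DAF-16 is known to activate also rose. Of 18 tested, 15 rose and none fell (1 did with no filter on low counts), with a median log2 of 0.96. A further 7 small heat shock genes of the list, and scl-1, had too few counts to be tested. sod-3, the mitochondrial superoxide dismutase gene used as a DAF-16 reporter, had 13.7, 11.4 and 12.7 CPM in the double mutant, against 1.09, 1.64 and 1.55 CPM in wild type, a log2 difference of 3.16 (SE 0.17, edgeR adjusted p = 8.91e-07), although overlapping genes hold counts equal to 80.4% of its own. The metallothionein gene mtl-1 had 3.43, 2.60 and 2.51 CPM in the double mutant and 0.202, 0.102 and 0.0499 CPM in wild type (log2 4.46, SE 0.38, edgeR adjusted p = 1.40e-05). The lysozyme gene lys-7 had 162, 163 and 148 CPM in the double mutant and 40.6, 36.6 and 35.2 CPM in wild type (log2 2.07, SE 0.072, edgeR adjusted p = 8.99e-08). hil-1, a linker histone gene, had 5.90, 4.98 and 5.08 CPM in the double mutant and 0.808, 0.664 and 0.998 CPM in wild type (log2 2.68, SE 0.20, edgeR adjusted p = 5.74e-06). Less far apart were the catalase gene ctl-1, with 44.7, 28.3 and 37.0 CPM in the double mutant and 20.4, 25.8 and 15.7 CPM in wild type (log2 0.83, SE 0.20, edgeR adjusted p = 0.00604), and dod-3, with 14.04, 13.3 and 10.7 CPM and 3.27, 5.01 and 3.24 CPM (log2 1.72, SE 0.19, edgeR adjusted p = 7.06e-05). The glyoxylate cycle gene icl-1 was not called (log2 0.27, edgeR adjusted p = 0.0788).

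Genes listed as repressed by DAF-16 did not move together: of 10 tested, 5 rose and 3 fell. dod-24, known as an innate immunity gene, had 823, 865 and 822 CPM in the double mutant, against 43.3, 63.4 and 55.1 CPM in wild type, a log2 difference of 3.96 (SE 0.13, edgeR adjusted p = 7.87e-08). dod-17 had 143, 150.3 and 131 CPM in the double mutant and 20.4, 26.2 and 26.4 CPM in wild type (log2 2.54, SE 0.11, edgeR adjusted p = 2.38e-07). The 3 that fell were ins-7, given above, and the yolk protein genes vit-2 and vit-5.

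Other stress lists, which share members with those of SKN-1 and DAF-16, moved in both directions. Among 25 tested chaperone and unfolded protein response genes, 8 rose and 8 fell, against 5 and 2 in the fit to all 12 libraries. The 6-library shares, 32% each, are not above those of all tested genes, 33.6% and 40.1%. hsp-4, the BiP chaperone of the endoplasmic reticulum whose level reports unfolded proteins there, fell to 182, 176 and 182 CPM in the double mutant, against 509.8, 503 and 498 CPM in wild type, a log2 difference of -1.48 (SE 0.048, edgeR adjusted p = 6.20e-08). hsp-6, the mitochondrial counterpart, was not called (log2 0.011, edgeR adjusted p = 0.865). Of 7 tested small heat shock genes 3 rose, among them sip-1, with 218, 223 and 212 CPM in the double mutant and 26.3, 35.5 and 25.2 CPM in wild type (log2 2.91, SE 0.12, edgeR adjusted p = 2.50e-07). Their median log2 was 0.18 but turned negative in the fit to 11 libraries and in that without wild-type replicate 3. Of 21 tested genes for the removal of superoxide and peroxide, 10 rose, among them sod-3 and ctl-1 given above, and 3 fell (9 and 1 in the fit to all 12 libraries).

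All 31 proteasome subunit genes were lower in the double mutant, by a small and even amount. The median was -0.42, the summed level 5020, 5262 and 5285 CPM in the double mutant and 6779, 6917 and 6833 CPM in wild type. Proteasome genes are SKN-1 targets when the proteasome is impaired. rpn-10, a ubiquitin receptor of the regulatory particle, had 109, 114 and 116 CPM in the double mutant and 147, 151 and 146 CPM in wild type (log2 -0.39, SE 0.049, edgeR adjusted p = 0.000162). pbs-4, a core subunit, had 110.3, 114.9 and 114.9 CPM in the double mutant, against 167, 178 and 169 CPM in wild type (log2 -0.59, SE 0.051, edgeR adjusted p = 1.55e-05). The fit to all 12 libraries, whose spread is wider, called 4 of the 31 lower, with a median of -0.31.

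Genes for protein synthesis were slightly lower as well. Of 79 tested cytosolic ribosomal protein genes 44 fell and 5 rose, with a median of -0.16, and of 67 mitochondrial ones 46 fell and none rose, with a median of -0.24. Among 42 translation factors 22 fell and 4 rose, and among 32 aminoacyl-tRNA synthetases 23 fell and 1, cars-2, rose. In the fit to all 12 libraries 3, 1, 3 and 2 members of these 4 lists were called lower. The few rises were less stable, at 1 to 13 among the cytosolic ribosomal protein genes and 2 to 9 among the translation factors over all alternatives, with the most under upper-quartile scaling. eef-1A.1, an elongation factor gene, had 9433, 8566 and 9176 CPM in the double mutant and 10841, 10762 and 10856 CPM in wild type (log2 -0.26, SE 0.044, edgeR adjusted p = 0.000904), a call lost in the fits to 11 and 12 libraries. Its paralogue eef-1A.2 moved the other way, with 2792, 2497 and 2494 CPM in the double mutant and 1387, 1408 and 1547 CPM in wild type (log2 0.84, SE 0.065, edgeR adjusted p = 7.76e-06). iff-1, an initiation factor gene needed in the germ line, fell to 87.6, 88.9 and 84.1 CPM in the double mutant, against 331, 332 and 317 CPM in wild type (log2 -1.91, SE 0.052, edgeR adjusted p = 3.11e-08). rpl-25.1 rose, with 704, 617 and 717 CPM in the double mutant and 389, 428 and 449.6 CPM in wild type (log2 0.69, SE 0.078, edgeR adjusted p = 7.86e-05).

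Regulators of development rose broadly. In the dauer steroid and TGF-beta pathways, which decide between growth and dauer arrest, 16 of 19 tested genes rose and none fell. daf-9, the cytochrome P450 that makes the steroid ligand of DAF-12, had 37.1, 32.9 and 39.4 CPM in the double mutant, against 4.89, 3.02 and 4.44 CPM in wild type, a log2 difference of 3.13 (SE 0.16, edgeR adjusted p = 6.01e-07). daf-12, the nuclear receptor of that ligand, had 191, 160.2 and 155 CPM in the double mutant and 48.8, 47.4 and 52.6 CPM in wild type (log2 1.77, SE 0.089, edgeR adjusted p = 6.55e-07). din-1, a corepressor of DAF-12, had 259, 221 and 229.8 CPM in the double mutant and 138, 129 and 147 CPM in wild type (log2 0.78, SE 0.077, edgeR adjusted p = 3.37e-05). The TGF-beta ligand daf-7 had 10.7, 10.9 and 8.998 CPM in the double mutant and 7.68, 7.003 and 9.13 CPM in wild type (log2 0.36, SE 0.13, edgeR adjusted p = 0.0397), and its call was lost in 7 of 17 alternatives, 4 of which left out a single library. daf-36, an enzyme earlier in the steroid route, was not called (log2 -0.16, edgeR adjusted p = 0.19).

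Of 10 tested heterochronic genes, which time the larval stages, 9 rose and 1 fell. lin-46 had 11.2, 13.3 and 12.6 CPM in the double mutant, against 0.364, 0.613 and 0.848 CPM in wild type, a log2 difference of 4.37 (SE 0.23, edgeR adjusted p = 7.31e-07). lin-41, a target of the let-7 microRNA that is also needed in oocytes, had 258, 194 and 177 CPM in the double mutant and 48.0, 50.1 and 51.7 CPM in wild type (log2 2.07, SE 0.13, edgeR adjusted p = 2.62e-06). hbl-1, a hunchback-like gene of the early larval programme, had 44.5, 43.3 and 43.2 CPM in the double mutant and 9.90, 10.2 and 13.8 CPM in wild type (log2 1.95, SE 0.12, edgeR adjusted p = 1.77e-06), and lin-14, which specifies first-stage fates, 81.9, 76.7 and 74.1 CPM and 37.9, 35.8 and 41.6 CPM (log2 1.01, SE 0.07, edgeR adjusted p = 4.11e-06). lin-28 was the one that fell, with 11.8, 12.9 and 14.4 CPM in the double mutant and 23.7, 23.1 and 22.2 CPM in wild type (log2 -0.82, SE 0.091, edgeR adjusted p = 7.26e-05), where overlapping genes hold counts equal to 73.9% of its own.

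Nuclear hormone receptors, a family much enlarged in this worm, rose at 146 of 198 tested genes and fell at 5 (120 and 3 in the fit to all 12 libraries), with a median log2 of 0.66 and a summed level of 3571, 3506 and 3540 CPM in the double mutant, against 2218, 2249 and 2312 CPM in wild type. nhr-25, an epidermal regulator of moulting, had 47.2, 46.9 and 53.8 CPM in the double mutant and 7.15, 8.59 and 7.28 CPM in wild type (log2 2.69, SE 0.096, edgeR adjusted p = 1.02e-07). nhr-155 had 6.90, 5.25 and 4.50 CPM in the double mutant and 0.283, 0.0511 and 0.249 CPM in wild type (log2 4.74, SE 0.37, edgeR adjusted p = 8.59e-06). nhr-49, a regulator of fat metabolism, differed by only 0.23 (edgeR adjusted p = 0.00775; 0.0603 in the fit to all 12 libraries). nhr-266 fell to 0 in every double-mutant library, against 4.61, 3.27 and 2.84 CPM in wild type. Among 22 transcription factors tied to lifespan 18 rose. pqm-1, which acts opposite to DAF-16 in the nucleus, had 28.5, 29.3 and 32.9 CPM in the double mutant and 13.4, 13.9 and 15.97 CPM in wild type (log2 1.07, SE 0.094, edgeR adjusted p = 1.72e-05). hlh-30, the TFEB homologue for autophagy and lysosome genes, had 214, 205 and 199.6 CPM and 116, 119.2 and 118 CPM (log2 0.81, SE 0.051, edgeR adjusted p = 2.35e-06). cep-1, the worm's p53, was the one that fell (1 of 2 without wild-type replicate 3 or double-mutant replicate 1), with 12.1, 11.5 and 10.5 CPM in the double mutant and 28.5, 28.01 and 26.1 CPM in wild type (log2 -1.28, SE 0.081, edgeR adjusted p = 2.45e-06).

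**Figure D2:**
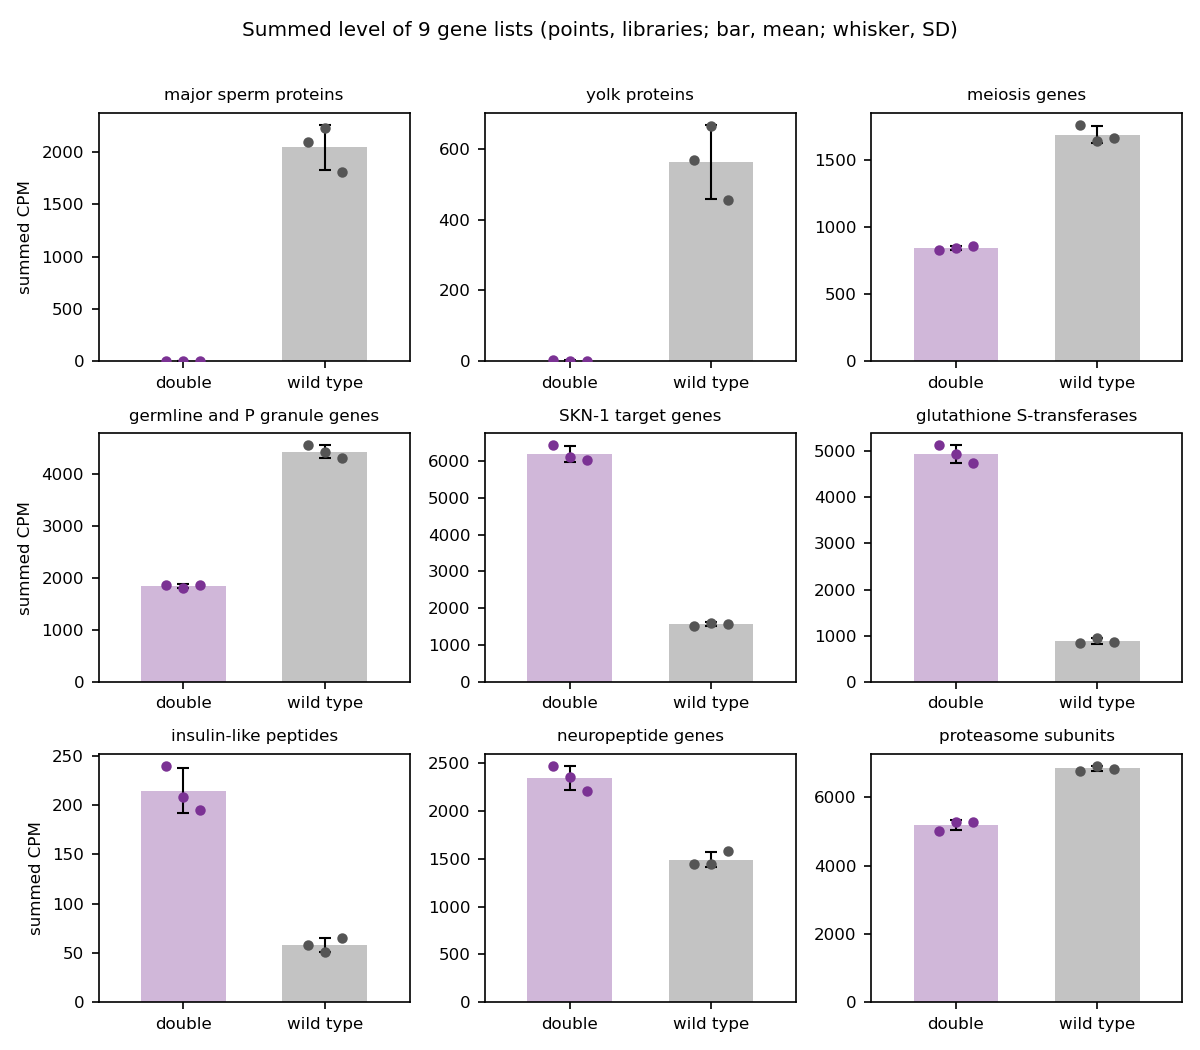
Summed CPM of 9 gene lists in each library of the double mutant (left) and wild type (right); bars are means of 3 libraries with SD. The major sperm protein genes sum to 1.6 to 2.198 CPM in the double mutant and 1807 to 2229 CPM in wild type.

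Cuticle genes differed widely in both directions. Collagens are the main structural proteins of the worm's cuticle, and each larval stage and the adult lay down their own set. Of 127 tested col genes, 73 rose, 66 of them at least 2-fold, and 36 fell, 35 of them at least 2-fold. The summed level was 31170, 29150 and 28340 CPM in the double mutant and 25870, 30930 and 22860 CPM in wild type. col-63 had 0.274, 0.359 and 0.446 CPM in the double mutant, against 1264, 1684 and 962 CPM in wild type, a log2 difference of -11.77 (SE 0.31, edgeR adjusted p = 2.82e-08). col-73 differed less, with 1376, 1783 and 1983 CPM in the double mutant and 3651, 3978 and 3120 CPM in wild type (log2 -1.06, SE 0.14, edgeR adjusted p = 0.00017). In the other direction, col-36 had 73.8, 43.6 and 50.4 CPM in the double mutant and 0, 0.102 and 0 CPM in wild type, at least 365-fold higher (edgeR adjusted p = 3.28e-07). col-40, known as a dauer collagen, had 19.98, 11.3 and 13.8 CPM in the double mutant and 0.202, 0.409 and 0.0499 CPM in wild type (log2 6.07, SE 0.41, edgeR adjusted p = 3.58e-06). The cuticlin gene cut-1, whose product is known from the alae of dauer larvae, had 21.6, 10.5 and 13.4 CPM in the double mutant and 0.0808, 0.0511 and 0.0499 CPM in wild type, at least 98.7-fold higher (edgeR adjusted p = 2.67e-06).

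Among 25 tested cuticle collagens and cuticlins with other names, 7 rose and 8 fell (7 and 5 in the fits to 11 and 12 libraries). These are 28% and 32%, against 33.6% and 40.1% of all tested genes, so the rises did not outnumber the falls as in the col genes. Transcripts of genes for the struts of the adult cuticle fell steeply. bli-1, which encodes one of the strut collagens, had 1.10, 1.03 and 1.13 CPM in the double mutant, against 1340, 849 and 1446 CPM in wild type, a log2 difference of -10.11 (SE 0.27, edgeR adjusted p = 3.01e-08). bli-2, its partner, had 4.89, 7.05 and 6.83 CPM in the double mutant and 952, 766 and 947 CPM in wild type (log2 -7.14, SE 0.17, edgeR adjusted p = 1.62e-08). col-19, the usual adult marker, was low in both genotypes, with 0.0914, 0.269 and 0.0687 CPM in the double mutant and 1.82, 3.37 and 1.35 CPM in wild type (log2 -3.93, SE 0.56, edgeR adjusted p = 0.000318). All 6 genes of the annular furrow group rose, dpy-7 among them, with 385, 382 and 379 CPM in the double mutant and 145, 80.5 and 231 CPM in wild type (log2 1.33, SE 0.31, edgeR adjusted p = 0.00463). The wild-type libraries spread widely at dpy-7, and their highest still lay below the lowest of the double mutant. rol-6 was not called, at 517, 698 and 767 CPM in the double mutant and 608, 582 and 571 CPM in wild type (log2 0.17, edgeR adjusted p = 0.257).

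Among the hedgehog-related and patched-related genes, which act in the epidermis and in moulting, 34 of 71 tested genes rose and 22 fell (32 and 11 in the fit to all 12 libraries). grl-23 had 6.40, 4.89 and 5.91 CPM in the double mutant and 0 in every wild-type library, at least 37.4-fold higher (edgeR adjusted p = 6.93e-06). wrt-6 fell to 67.1, 87.0 and 102 CPM in the double mutant, against 444, 457 and 366 CPM in wild type (log2 -2.30, SE 0.16, edgeR adjusted p = 3.52e-06). Among 42 tested astacin protease and moulting genes 25 rose and 7 fell, with 2 falls in the fits to 11 and 12 libraries and 4 with upper-quartile scaling, with the replicate block, without wild-type replicate 1 or without double-mutant replicate 1. noah-1, a component of the apical matrix, had 1420, 1322 and 1273 CPM in the double mutant and 492, 245 and 768 CPM in wild type (log2 1.42, SE 0.34, edgeR adjusted p = 0.00521), whereas mlt-10 fell to 225, 284 and 333 CPM in the double mutant, against 1089, 1008 and 989.9 CPM in wild type (log2 -1.87, SE 0.13, edgeR adjusted p = 4.06e-06). Wild-type replicate 2 was the lowest of its group at dpy-7, noah-1 and the protease inhibitor gene mlt-11, and replicate 3 the highest.

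**Figure D3:**
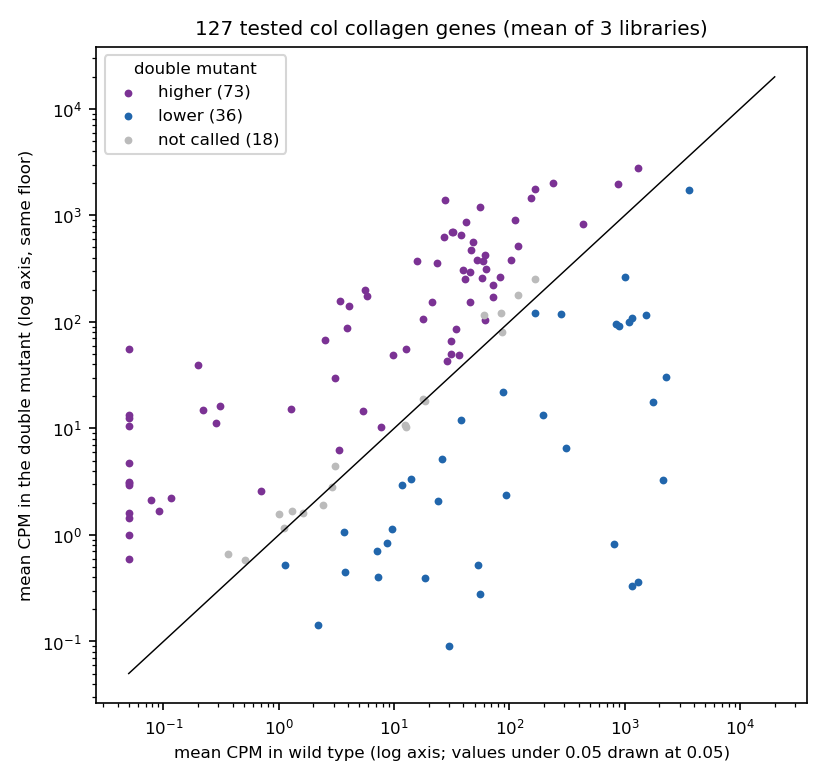
Mean CPM of each tested col collagen gene in the double mutant (vertical log axis) against wild type (horizontal log axis), 3 libraries each, coloured by call; the line marks equal levels and values under 0.05 are drawn at 0.05. The 73 genes that rose lie above the line, up to at least 364.9-fold for col-36, and the 36 that fell lie below it, among them col-63.

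Genes of fat metabolism moved in both directions. Of 18 fatty acid desaturase and elongase genes 11 fell and 2 rose, with 4 falls in the fit to all 12 libraries and 7 in that to 11. fat-7, a stearoyl-CoA desaturase, fell to 22.4, 22.6 and 17 CPM in the double mutant, against 216, 234 and 202 CPM in wild type, a log2 difference of -3.40 (SE 0.12, edgeR adjusted p = 9.08e-08). Its close paralogue fat-6 had 456, 472 and 506 CPM in the double mutant and 654, 765 and 623 CPM in wild type (log2 -0.51, SE 0.083, edgeR adjusted p = 0.000646), not called in the fit to all 12 libraries. The fatty acid synthase gene fasn-1 rose, with 1442, 1242 and 1259 CPM in the double mutant and 556, 501 and 652 CPM in wild type (log2 1.21, SE 0.10, edgeR adjusted p = 1.36e-05). elo-7 was at 0 in the double mutant, against 16.7, 16.9 and 16.4 CPM in wild type, with counts in overlapping genes at 43.8% of its own. Of 63 fatty acid oxidation genes 26 rose and 21 fell (19 and 9 in the fit to all 12 libraries). The 6-library shares are 41.3% and 33.3%, against 33.6% and 40.1% of all tested genes. acox-1.5, a peroxisomal acyl-CoA oxidase gene, had 275, 239.7 and 292 CPM in the double mutant and 61.8, 58.3 and 73.1 CPM in wild type (log2 2.06, SE 0.11, edgeR adjusted p = 6.79e-07). acs-2, a target of NHR-49, had 18.1, 14.3 and 14.9 CPM in the double mutant and 25.5, 32.97 and 29.1 CPM in wild type (log2 -0.89, SE 0.12, edgeR adjusted p = 0.000255), not called in that fit either. Among 31 tested lipase and lipid-binding genes 15 rose and 8 fell (13 and 2 in that fit, 15 and 4 in that to 11 libraries, 14 and 5 without double-mutant replicate 1), and the lysosomal lipase gene lipl-5 had 113, 117 and 138 CPM in the double mutant and 256, 296 and 274 CPM in wild type (log2 -1.17, SE 0.09, edgeR adjusted p = 7.93e-06).

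In carbohydrate metabolism 18 of 32 genes rose and 7 fell, against 9 and 5 in the fit to all 12 libraries and 12 rises in that to 11. tps-1, a trehalose synthase gene, had 61.5, 56.4 and 53.0 CPM in the double mutant and 31.03, 29.4 and 27.8 CPM in wild type (log2 0.95, SE 0.073, edgeR adjusted p = 7.79e-06). pck-2, for gluconeogenesis, differed by 0.19 (edgeR adjusted p = 0.00901; 0.157 in the fit to all 12 libraries), and pck-3 was at 0 in the double mutant, against 39.1, 38.7 and 34.7 CPM in wild type. Of 50 tested genes of the respiratory chain and ATP synthase 15 fell and 7 rose, with a median of -0.06. Upper-quartile scaling gave 11 falls and 11 rises, leaving out wild-type replicate 1 gave 16 and 4, the fit to 11 libraries 10 and 4, and that to all 12 libraries 5 and 2 with a median of 0.05. cyc-2.2, one of the worm's cytochrome c genes, was at 0 in the double mutant, against 39.8, 38.03 and 37.9 CPM in wild type, at least 281-fold lower (edgeR adjusted p = 7.35e-08). In the metal-handling list 7 of 14 tested genes rose and 4 fell, with 8 and 1 in the fit to all 12 libraries and 7 and 2 in that to 11. The ferritin gene ftn-1 was not called, with 18.8, 18.2 and 11.99 CPM in the double mutant and 12.7, 13.1 and 8.68 CPM in wild type (log2 0.50, edgeR adjusted p = 0.0599), although 7 of 17 alternatives called it.

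Genes of defence against microbes moved in both directions by family. Of 23 tested infection response genes 17 rose and none fell (1 did with no filter). irg-7 had 2685, 2814 and 3587 CPM in the double mutant, against 1071, 1555 and 1209 CPM in wild type, a log2 difference of 1.24 (SE 0.15, edgeR adjusted p = 0.000127). pals-27 had 1.55, 1.84 and 1.79 CPM in the double mutant and 0, 0 and 0.0499 CPM in wild type, at least 11.3-fold higher (edgeR adjusted p = 1.61e-05). Of 28 tested epidermal antimicrobial peptide genes 17 rose and 5 fell. nlp-29, induced by fungal infection and wounding, had 19.4, 12.8 and 8.62 CPM in the double mutant and 5.49, 3.48 and 5.79 CPM in wild type (log2 1.45, SE 0.31, edgeR adjusted p = 0.00301), and cnc-4 fell to 1.65, 2.02 and 2.03 CPM, against 5.62, 5.37 and 5.64 CPM in wild type (log2 -1.54, SE 0.15, edgeR adjusted p = 3.09e-05). The C-type lectins were evenly divided, with 42 rises and 45 falls among 118 tested genes. clec-74 had 6.40, 8.98 and 17.9 CPM in the double mutant and 0.0808, 0.102 and 0.1996 CPM in wild type (log2 6.43, SE 0.63, edgeR adjusted p = 3.16e-05), and clec-123 had 0, against 65.0, 66.8 and 59.5 CPM in wild type. Among 29 tested lysozyme and saposin-like genes 13 rose and 11 fell, or 44.8% and 37.9% (9 and 6 genes in the fit to all 12 libraries). spp-9 had 42.9, 49.6 and 21.5 CPM in the double mutant and 0.283, 0.256 and 0.0998 CPM in wild type (log2 7.41, SE 0.50, edgeR adjusted p = 3.55e-06), and the invertebrate lysozyme gene ilys-5 fell to 37.8, 40.5 and 18.96 CPM, against 739, 832 and 739 CPM in wild type (log2 -4.58, SE 0.27, edgeR adjusted p = 1.58e-06). The F-box and MATH families had 71 rises and 82 falls among 203 tested genes (35% and 40.4%). These shares, and those of the C-type lectins (35.6% and 38.1%), are near the 33.6% and 40.1% of all tested genes.

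Neuropeptide genes rose at 62 of 100 tested members and fell at 5 (53 and 3 in the fit to all 12 libraries), with a median of 0.68 and a summed level of 2464, 2349 and 2210 CPM in the double mutant, against 1444, 1441 and 1583 CPM in wild type. flp-1, an FMRFamide-like peptide gene, had 47.4, 41.2 and 38.3 CPM in the double mutant and 24.04, 22.3 and 27.04 CPM in wild type (log2 0.79, SE 0.10, edgeR adjusted p = 0.00016). nlp-4 fell to 0.183, 0.314 and 0.275 CPM in the double mutant, against 5.37, 5.16 and 5.29 CPM in wild type (log2 -4.32, SE 0.22, edgeR adjusted p = 6.74e-07). The 6 neuronal markers rose too, among them rab-3, a synaptic vesicle gene, with 34.8, 33.5 and 32.04 CPM in the double mutant and 16.1, 16.9 and 18.0 CPM in wild type (log2 0.98, SE 0.071, edgeR adjusted p = 5.57e-06). All 6 intestinal markers rose, for example the brush border actin gene act-5, with 1971, 1866 and 1947 CPM and 1028, 1143 and 1189 CPM (log2 0.78, SE 0.062, edgeR adjusted p = 8.86e-06). The part of tissue proportions in these rises was not tested. Markers of other body tissues rose less uniformly. Called higher were 4 of 6 markers of body wall muscle, 3 of 5 of hypodermis, 1 of 5 of pharynx and 0 of 2 of coelomocytes, and none was called lower. Of 28 muscle filament genes 20 rose and 1 fell, by small amounts (median 0.37), with 11 rises in the fit to all 12 libraries and 13 in that to 11. The body wall myosin gene myo-3 had 636, 591 and 592 CPM in the double mutant and 414, 456 and 399 CPM in wild type (log2 0.52, SE 0.064, edgeR adjusted p = 0.000135), and unc-54, the major myosin heavy chain gene, was not called (log2 0.087, edgeR adjusted p = 0.389). Of 50 tested transthyretin-like genes 25 rose and 11 fell, with 17 falls among 58 genes where no filter was applied.

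Genes of reproduction fell in large numbers. Yolk proteins are made in the adult intestine and taken up by oocytes, and all 6 vitellogenin genes fell. Together they had 3.06, 2.15 and 2.37 CPM in the double mutant, against 568, 664 and 455 CPM in wild type. vit-6 had 1.74, 1.80 and 1.85 CPM in the double mutant and 339, 387 and 240.1 CPM in wild type, a log2 difference of -7.48 (SE 0.22, edgeR adjusted p = 4.11e-08). vit-2 had 0.137, 0 and 0.0343 CPM in the double mutant and 108, 124 and 107 CPM in wild type, at least 824-fold lower (edgeR adjusted p = 1.07e-08). vit-1 fell to 1.14, 0.224 and 0.412 CPM, against 89.4, 91.5 and 85.7 CPM in wild type (log2 -7.26, SE 0.25, edgeR adjusted p = 8.48e-08). vit-3 had no count in the double mutant, against 23.0, 46.0 and 15.2 CPM in wild type, and vit-5 had none either, against 2.75, 5.32 and 3.59 CPM in wild type. The vitellogenins resemble each other, so single members are less certain than the sum.

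Sperm transcripts were all but missing from the double mutant. Major sperm proteins drive the crawling of nematode sperm, and 35 of 35 tested genes fell, with a summed level of 1.6, 1.84 and 2.20 CPM in the double mutant, against 2099, 2229 and 1807 CPM in wild type. msp-31 had 0.366, 0.180 and 0.103 CPM in the double mutant and 132, 147 and 123 CPM in wild type (log2 -9.31, SE 0.19, edgeR adjusted p = 1.00e-08), while msp-57 had 0 and 128, 129.6 and 109.9 CPM, at least 894-fold lower (edgeR adjusted p = 6.23e-08). Single members of this near-identical family are uncertain. Of 41 sperm markers 28 were at 0 in every double-mutant library, and their sum was 4.755 to 5.289 CPM, against 2102 to 2527 CPM in wild type. alg-3, an Argonaute gene of spermatogenesis, had 0.823, 0.808 and 0.687 CPM in the double mutant and 136, 131 and 123 CPM in wild type (log2 -7.40, SE 0.092, edgeR adjusted p = 2.16e-09), and alg-4 had 0, 0 and 0.0343 CPM and 159, 155 and 153 CPM, at least 1135-fold lower (edgeR adjusted p = 2.16e-09). fer-1, needed for membrane fusion in sperm, had 0.366, 0.853 and 0.756 CPM in the double mutant and 51.4, 45.2 and 47.1 CPM in wild type (log2 -6.16, SE 0.17, edgeR adjusted p = 3.28e-08). The sperm phosphatase gene gsp-3 had 0, 0 and 0.0687 CPM and 105, 99.0 and 99.0 CPM, at least 735-fold lower (edgeR adjusted p = 6.34e-09).

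The wider spermatogenesis list was less uniform, with 78 falls and 13 rises among 96 tested genes. All 13 that rose are small peptide genes of the nspb, nspe and nspg groups, such as nspg-7.1, with 490.0, 509 and 596 CPM in the double mutant and 296, 357 and 324 CPM in wild type (log2 0.71, SE 0.094, edgeR adjusted p = 0.000197), and the list drew them in by their nsp names alone. In the same direction as these, 2 genes that instruct germ cells to become sperm rose. fog-1 had 32.3, 31.6 and 31.5 CPM in the double mutant, against 4.89, 5.47 and 7.43 CPM in wild type, a log2 difference of 2.43 (SE 0.14, edgeR adjusted p = 1.21e-06), and fog-3 had 10.7, 11.6 and 12.5 CPM and 5.74, 4.09 and 6.29 CPM (log2 1.11, SE 0.16, edgeR adjusted p = 0.000336).

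Oocyte and germ cell genes fell less far. Of 34 tested oocyte and eggshell genes 31 fell, with a median of -2.52, and lin-41 alone rose. The yolk receptor gene rme-2 had 8.18, 7.59 and 7.80 CPM in the double mutant and 55.0, 55.0 and 42.2 CPM in wild type (log2 -2.69, SE 0.12, edgeR adjusted p = 2.98e-07). oma-1, for oocyte maturation, had 6.54, 6.96 and 8.41 CPM and 42.9, 40.4 and 36.6 CPM (log2 -2.44, SE 0.11, edgeR adjusted p = 3.42e-07), and perm-4, for the eggshell, had 0 and 59.9, 78.9 and 48.8 CPM, at least 456-fold lower (edgeR adjusted p = 2.16e-06). Of 29 germline and P granule genes 26 fell (17 in the fit to all 12 libraries), and the 2 that rose were fog-1 and fog-3. gld-1, an RNA-binding protein of meiotic germ cells, had 53.5, 50.05 and 52.7 CPM in the double mutant and 394, 407 and 374 CPM in wild type (log2 -2.91, SE 0.06, edgeR adjusted p = 1.00e-08). pgl-1, a P granule component, had 124, 111 and 118 CPM and 458, 442 and 424 CPM (log2 -1.90, SE 0.061, edgeR adjusted p = 6.23e-08), and the helicase gene glh-1 320.3, 293 and 294 CPM and 739.7, 726 and 699 CPM (log2 -1.26, SE 0.056, edgeR adjusted p = 3.23e-07). glp-1, the Notch receptor of germline stem cells, differed less, with 49.8, 49.3 and 51.3 CPM in the double mutant and 69.9, 65.5 and 63.9 CPM in wild type (log2 -0.41, SE 0.054, edgeR adjusted p = 0.000209), a call lost in the fits to 11 and 12 libraries.

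Argonaute genes of the germ line, which bind small RNAs, included 4 that fell, all but prg-1 named after their values were seen. csr-1 had 168, 182 and 197 CPM in the double mutant and 446, 443 and 416 CPM in wild type (log2 -1.26, SE 0.07, edgeR adjusted p = 1.08e-06), wago-1 113, 106 and 109 CPM and 359, 352 and 342 CPM (log2 -1.68, SE 0.052, edgeR adjusted p = 5.32e-08), hrde-1 79.1, 70.1 and 71.4 CPM and 215, 222 and 199 CPM (log2 -1.53, SE 0.07, edgeR adjusted p = 3.60e-07), and the Piwi gene prg-1 114, 112 and 113 CPM and 274, 245 and 278 CPM (log2 -1.23, SE 0.062, edgeR adjusted p = 6.19e-07). All 43 meiosis genes fell, with a median of -1.28. him-3, a chromosome axis gene, had 17.4, 19.6 and 18.0 CPM in the double mutant and 82.9, 77.1 and 78.9 CPM in wild type (log2 -2.12, SE 0.064, edgeR adjusted p = 4.90e-08), where overlapping genes hold counts equal to 27.1% of its own. Of 43 tested replication and mitosis genes 33 fell and none rose (16 falls in the fit to all 12 libraries; 2 rises with upper-quartile scaling), with a median of -0.51. cdk-1 had 54.2, 58.3 and 60.7 CPM and 79.2, 81.3 and 83.3 CPM (log2 -0.49, SE 0.057, edgeR adjusted p = 9.23e-05), not called in the fit to all 12 libraries, while the ribonucleotide reductase gene rnr-1 (log2 0.10, edgeR adjusted p = 0.291) was not called. Of 45 tested histone genes 34 fell and 2 rose. The histone H3 variant gene his-70 was at 0 in the double mutant, against 24.8, 24.7 and 19.8 CPM in wild type.

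Beyond differences of degree, some genes were detected in one genotype alone. With at least 1 CPM in every library of one genotype and at most 3 counts in every library of the other, 51 genes were on in the double mutant alone and 992 in wild type alone. These are 0.338% and 6.58% of tested genes. The 51 held 12 of 127 tested col collagens, 5 of 71 hedgehog-related and 5 of 45 glutathione S-transferase genes. In skn-1gf, 16 of the 51 had at least 1 CPM in every library, and in daf-2lf 15 did, while 22 of them had at most 3 counts in every skn-1gf library and 1 in every daf-2lf library. Of the 992 genes on in wild type alone, 881 are protein-coding and 104 are pseudogenes. They hold 30 of 35 tested major sperm protein genes and 33 of 96 in the spermatogenesis list, whereas 14 of 203 F-box and MATH genes and 11 of 118 C-type lectins are near the share of all genes, and 880 are in none of the 48 lists. No more than 3 counts were found for 904 of the 992 in any daf-2lf library, while 741 had at least 1 CPM in every skn-1gf library. Pseudogenes as a class were called lower at 56.3% of 487 tested and higher at 19.3%, against 39.6% and 34.2% of 14466 protein-coding genes.

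The calls were unevenly spread over the chromosomes. On the X chromosome 57% of 2115 tested genes were higher in the double mutant and 15.9% lower, with a median log2 of 0.44. Chromosome V came next, with 41.2% higher and 33.1% lower. On chromosome I the balance was opposite, with 22.5% higher and 51.7% lower and a median of -0.22, and chromosomes II, III and IV resembled it. In the worm's germ line the X chromosome is known to be largely silent. The summed level of 8 germline markers was 678.6 to 727.5 CPM in the double mutant, against 2210 to 2327 CPM in wild type, and its part in the chromosome pattern was not tested. Among protein-coding genes outside the reproduction lists the shares on X were 58.6% higher and 14.1% lower. Those lists are short, and 880 of the 992 genes on in wild type alone are in none of the 48 lists. These shares therefore do not test the part of the germ line.

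**Figure D4:**
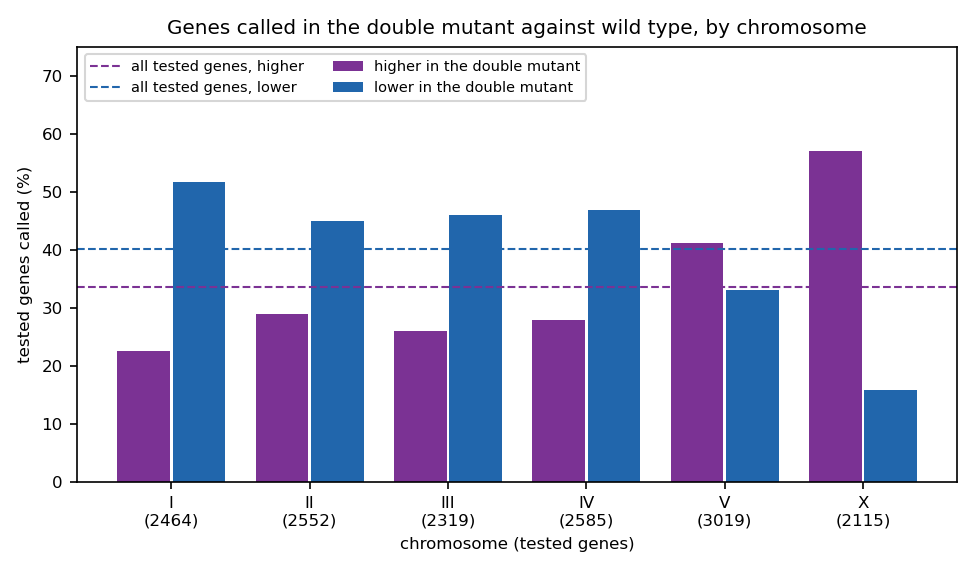
Share of tested genes called higher (left bars) or lower (right bars) in the double mutant against wild type on each nuclear chromosome, in percent, with the shares over all tested genes as dashed lines. On X 57% were higher and 15.9% lower, against 22.5% and 51.7% on chromosome I.

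The levels in the single mutants place the double mutant among the 4 genotypes. All comparisons share libraries, so the values are given side by side, and tests of the double mutant against a single mutant come from the fit to all 12 libraries unless stated. In that fit 1.01% of genes were higher and 0.616% lower in the double mutant than in daf-2lf, and 13.4% were higher and 18.4% lower than in skn-1gf. One library, daf-2lf replicate 1, stands apart from its replicates. Its deviations from the daf-2lf mean correlated with gene length at -0.584 across genes (Spearman), against -0.207 to 0.137 in the libraries of the other genotypes. The biological coefficient of variation was 23.9% in the fit to all 12 libraries, 16.2% without that library and 10.4% in the fit to the 6. Leaving it out, 1.18% of genes were higher and 0.53% lower in the double mutant than in daf-2lf, and 19.3% and 26.9% than in skn-1gf. None of the calls of single genes given below changed, but the counts of SKN-1 targets did. The skn-1gf libraries also spread widely at some markers. Their summed level ran from 505 to 1631 CPM at 8 germline markers and from 62.94 to 555.6 CPM at 5 pharyngeal ones. At 6 neuronal markers it ran only from 416.9 to 475.6 CPM. Comparisons with skn-1gf carry this spread.

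Of 20 SKN-1 targets, 14 were higher in the double mutant than in daf-2lf and none lower, while 3 were higher and 2 lower than in skn-1gf (16, none, 4 and 5 without daf-2lf replicate 1). gst-4 had 1465, 1435 and 1347 CPM in the double mutant, 1260, 1514 and 1178 CPM in skn-1gf and 65.0, 33.3 and 40.05 CPM in daf-2lf. The double mutant differed from daf-2lf by 4.91 log2 (edgeR adjusted p = 5.28e-07) and was not called against skn-1gf (0.21, edgeR adjusted p = 0.498). gcs-1 had 517, 448 and 441 CPM in the double mutant, 609, 651 and 487 CPM in skn-1gf and 41.2, 155 and 149.6 CPM in daf-2lf, a log2 difference of 2.00 from daf-2lf (edgeR adjusted p = 0.0148). wdr-23 differed from daf-2lf by 2.17 (edgeR adjusted p = 0.00114) and was not called against skn-1gf (-0.047, edgeR adjusted p = 0.921). gst-30 was lower in the double mutant than in skn-1gf, where it had 82.2, 107 and 87.3 CPM, with a log2 difference of -1.24 (edgeR adjusted p = 0.00268).

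Of 19 tested genes that DAF-16 activates, 18 were higher in the double mutant than in skn-1gf, and none was called against daf-2lf in either direction. Of 22 insulin-like peptide genes 12 were higher and 2 lower than in skn-1gf, and again none was called against daf-2lf. Few genes of any kind were called against daf-2lf (1.01% higher and 0.616% lower). The absence of calls in these 2 lists is therefore near the share of all genes and is not particular to them. sod-3 had 13.7, 11.4 and 12.7 CPM in the double mutant, 0.672, 0.339 and 0.532 CPM in skn-1gf and 20.2, 15.9 and 11.9 CPM in daf-2lf. It differed from skn-1gf by 4.67 log2 (edgeR adjusted p = 5.03e-07) and was not called against daf-2lf (-0.37, edgeR adjusted p = 0.454). mtl-1 had 3.43, 2.60 and 2.51 CPM in the double mutant, 0.192, 0.272 and 0 CPM in skn-1gf and 4.68, 3.91 and 2.96 CPM in daf-2lf, and its difference from skn-1gf was 4.38 (edgeR adjusted p = 5.17e-05). ins-35 had 93.0, 81.4 and 60.8 CPM in the double mutant, 12.3, 9.98 and 10.7 CPM in skn-1gf and 123, 71.2 and 82.5 CPM in daf-2lf, with a difference from skn-1gf of 2.94 (edgeR adjusted p = 2.34e-06). The yolk gene vit-6 was at 21.9, 23.97 and 35.6 CPM in skn-1gf and 0.0976, 0.584 and 0.712 CPM in daf-2lf, and the double mutant was lower than skn-1gf, with a log2 difference of -3.81 (edgeR adjusted p = 5.34e-06).

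Of the 10 tested genes listed as repressed by DAF-16, 5 were lower in the double mutant than in skn-1gf and 2, dod-24 and dod-17, higher than in daf-2lf. dod-24 had 823, 865 and 822 CPM in the double mutant, 3204, 3612 and 1758 CPM in skn-1gf and 10.6, 9.28 and 12.4 CPM in daf-2lf, above daf-2lf by 6.25 log2 (edgeR adjusted p = 4.41e-07) and below skn-1gf at -1.67 log2 (edgeR adjusted p = 0.000155). dod-17 had 595, 757 and 381 CPM in skn-1gf and 10.05, 19.9 and 14.2 CPM in daf-2lf, with differences of 3.24 from daf-2lf (edgeR adjusted p = 5.63e-05) and -1.93 from skn-1gf (edgeR adjusted p = 0.000122).

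Some genes lay beyond both single mutants and wild type. The 3 double-mutant libraries were above all 9 other libraries at 3.52% of tested genes and below all 9 at 4.25%. The double-mutant mean was at least 2-fold above the next genotype at only 66 of these genes. It was at least 2-fold below the next genotype at 80, not counting genes at 0 in every double-mutant library. Some of the 80, such as fbxa-125 at a mean of 0.01145 CPM, lie under the floor of 3 counts, so their ratios are not measured folds. spp-9 had 42.9, 49.6 and 21.5 CPM in the double mutant, 4.08, 7.60 and 4.47 CPM in skn-1gf and 7.32, 3.04 and 2.30 CPM in daf-2lf. It was higher than daf-2lf by 3.13 log2 (edgeR adjusted p = 0.00302) and than skn-1gf by 2.93 (edgeR adjusted p = 0.00024). col-36 had 73.8, 43.6 and 50.4 CPM in the double mutant, 0, 0 and 0.0443 CPM in skn-1gf and 11.02, 15.9 and 20.1 CPM in daf-2lf, higher than daf-2lf by 1.81 (edgeR adjusted p = 0.00943). cut-1 had 0.927, 4.38 and 2.52 CPM in daf-2lf and 0 in every skn-1gf library, and the double mutant was higher than daf-2lf by 2.52 (edgeR adjusted p = 0.024). In the opposite direction ilys-5 had 37.8, 40.5 and 18.96 CPM in the double mutant, 397, 498 and 375 CPM in skn-1gf and 258, 250.1 and 155 CPM in daf-2lf, at a log2 difference of -2.80 from daf-2lf (edgeR adjusted p = 0.000174) and of -3.60 from skn-1gf (edgeR adjusted p = 1.79e-06).

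**Figure D5:**
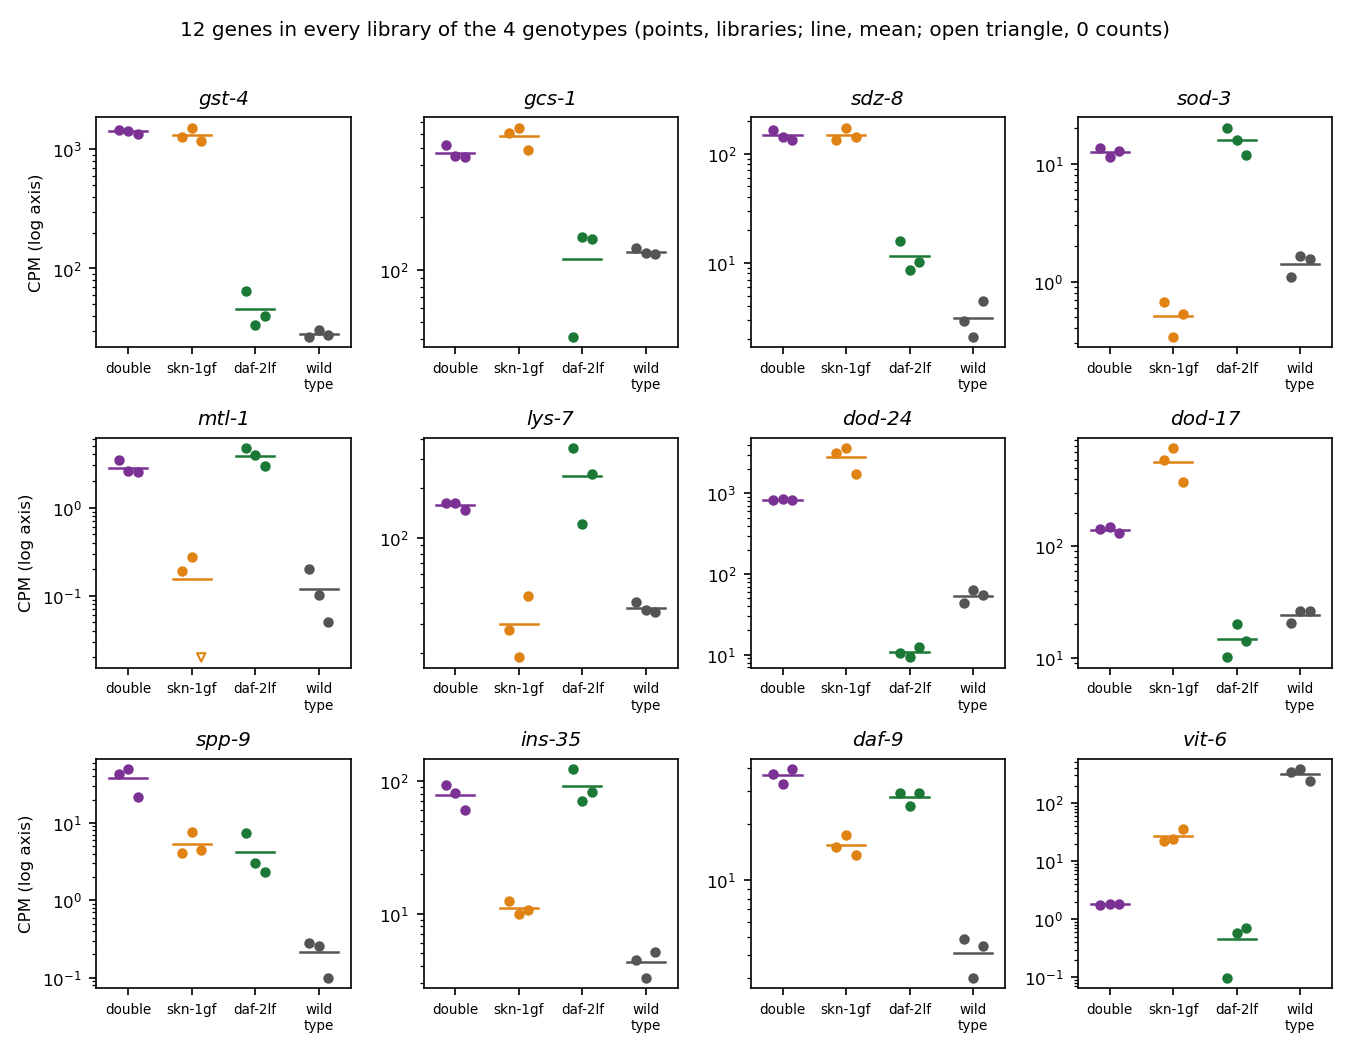
CPM (log axis) of 12 genes in each library of the double mutant, skn-1gf, daf-2lf and wild type (points; lines are means of 3 libraries; an open triangle marks 0 counts). The double mutant sits near skn-1gf for gst-4, gcs-1 and sdz-8, near daf-2lf for sod-3, mtl-1 and ins-35, between them for dod-24 and dod-17, and above both for spp-9.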

How the data were processed

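The authors deposited whole-number counts per gene for each library, not normalized, per the file header, and gene names and coordinates came from the same table. The aligner, the counter, the annotation and the treatment of strand are not given in the sources used here. The genome build named in the submitters' processing notes is ce10, whereas the file's chromosome versions and coordinates match WBcel235 (46920 of 46936 identifiers matched a RefSeq table of that assembly, 45476 with the same start and end), so no coordinates or sequences are printed.

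Libraries were grouped by the genotype in their labels. Counts were analysed in R 4.3.3 with edgeR 4.0.16: filterByExpr with a minimum count of 10, TMM scaling, and the quasi-likelihood F test on the 3 double-mutant and 3 wild-type libraries, with Benjamini-Hochberg adjustment over all tested genes and a threshold of 0.05. The single mutants were left out of this fit because daf-2lf replicate 1 stands apart from its replicates. CPM of all 4 genotypes are on 1 scale, set by the 6 libraries, so a small difference in scale for the single mutants is possible. A floor of 3 counts, at most 0.137 CPM in a double-mutant and 0.153 CPM in a wild-type library, gives the fold bounds; these cover counting error only. The procedure was tested on simulated counts in which only a small share of genes was changed, in either direction. That does not test the scaling where most genes differ, as they do here.

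The comparison, the 48 gene lists (from gene symbols and general knowledge) and the tests were chosen with earlier results of these data known. Genes named are 7 chosen for their roles, the 8 largest rises and 8 largest falls among protein-coding called genes whose mean log2 CPM reached 1 and whose genotypes did not overlap, and per list the members picked for their roles, the largest rise, the largest fall and the member of highest CPM. Named after their values were seen were gst-7, gst-12, vit-1, alg-4, dod-3, akt-2, ins-4, wago-1, csr-1, hrde-1, trx-2, trxr-1, rab-3 and act-5. A few list names with no row under that symbol (such as dod-11) are not analysed here. Alternatives were other scalings, DESeq2 1.42.0, limma-voom 3.58.1, other filters, a replicate block, fits to 11 and 12 libraries and leaving out each library.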

Additional observations from a re-analysis of the deposited data

How the results depend on the processing

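The counts of called genes kept within 1.5 times their value under the other scalings, filters and tools, with 10701 genes called by DESeq2 and 11189 by limma-voom. The exception was the fit to all 12 libraries, with 7368 genes called, 3293 of them lower, and 55.3% of calls higher. The share of higher calls also moved to 49.5% with upper-quartile scaling and to 47.1% in the fit to 11 libraries. Both lie beyond its 95% binomial interval of 44.7% to 46.5%. That interval treats called genes as independent and holds no spread between libraries, so it serves only as a mark for sorting the alternatives. Leaving out 1 library at a time gave 10255 to 10980 called genes, 4589 to 4996 higher, 5666 to 5984 lower, 4990 to 5242 at least 2-fold, and a share of 44.7% to 45.5%. With the replicate number as a replicate block, 10601 genes were called. Deviations of same-numbered libraries correlated at -0.0135, 0.0487 and -0.133, within the range of other-numbered ones (-0.154 to 0.171). No pairing by number was seen, but so few libraries cannot exclude a shared culture or batch. Under the block 1 of the genes named lost its call (daf-7, 0.36 log2, edgeR adjusted p = 0.0852) while ftn-1 gained one (0.50, edgeR adjusted p = 0.00359). Of 141 called genes named, 129 kept their call and direction under all 17 alternatives and 12 lost the call in at least 1, mostly the fit to all 12 libraries; none turned round. Genes that were not called did change sign. The difference of age-1 became 0.00043 with upper-quartile scaling, 0.052 with 12 libraries, and -0.11 to 0.0033 when 1 library was left out. That of hsp-6 became -0.0018 with scaling that left out reproduction genes, -0.0022 with no filter, and -0.024 to 0.044 when 1 library was left out. unc-54 ran from -0.011 to 0.18 without 1 library, and ins-35 against daf-2lf became 0.0046 in the fit to 11 libraries. The median kept its sign in 42 of 48 lists under all alternatives. The causes were not tested. Depth limits the genes near 3 counts: 23813 genes had no count in the 6 libraries.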
